A study of Mus musculus with 21 samples.

Results

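The ERBB receptors are the 4 receptor tyrosine kinases Egfr, Erbb2, Erbb3 and Erbb4. They were chosen by name, as all members of their gene family, and not by their values, and they make up 4 of the 55536 genes counted in this study of mouse mammary epithelium. RNA came from organoids grown from primary mammary epithelia, taken at day 0, day 14 and day 28 after activation of neuT, an oncogenic rat form of Erbb2. Both genotypes carried this oncogene. Cultures of one genotype were wild type (WT), and those of the other were homozygous for the ATLD1 allele of Mre11 (Mre11 ATLD1/ATLD1, called ATLD here), named after ataxia-telangiectasia-like disorder, in which the double-strand break nuclease Mre11 is impaired. The 6 groups of genotype and day held 3 libraries each, and for each day the first WT replicate had a second run, made with the ATLD samples. No culture without neuT was analysed at day 14 or day 28, so time in culture and neuT activation cannot be told apart. The labels do not name the promoter or switch behind neuT or the ages of the mice. Nor do they say whether replicates came from separate animals or cultures, so p-values may measure technical spread only.

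ERBB receptors sit in the cell membrane and bind growth factors of the EGF and neuregulin families. Ligand binding makes them pair, and each partner phosphorylates the other's tail, which recruits adaptors and switches on the ERK and PI3 kinase pathways. Egfr binds EGF and its relatives, Erbb3 and Erbb4 bind neuregulins, and Erbb2 has no known ligand of its own and acts as the preferred partner of the others. Erbb3 has a weak kinase and signals mainly through its partner. In the mammary gland Egfr is known for its part in duct growth at puberty, and Erbb4 for lobule formation and milk production.

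The 4 genes lie apart in the mm10 genome. Egfr (ENSMUSG00000020122) spans chr11:16752203-16918158 on the plus strand and Erbb2 (ENSMUSG00000062312) spans chr11:98412470-98437716 on the plus strand. Erbb3 (ENSMUSG00000018166) spans chr10:128567523-128589652 and Erbb4 (ENSMUSG00000062209) spans chr1:68032186-69108059, both on the minus strand. Erbb2 shares 9 exonic bases with Mien1, which runs on the opposite strand. Egfr has an antisense neighbour, Egfros, with no shared exonic base and at most 302 counts in a library.

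A stretch of 60 coding bases from the kinase domain shows Egfr, Erbb2 and Erbb3 where they are much alike, and the bases that differ there. The stretch was picked as the one of Erbb2 with the most bases equal, in sum, to its best matches in the other receptors, Erbb4 included. Its likeness is thus high by choice and does not stand for the whole genes. It begins at coding base 2807 of the transcript Egfr-201, 2828 of Erbb2-201 and 2786 of Erbb3-201, and in each gene it is read across an exon junction on the gene's own strand. Capitals mark the 50 bases that are equal in these 3 genes and lower case those that are not.
Egfr: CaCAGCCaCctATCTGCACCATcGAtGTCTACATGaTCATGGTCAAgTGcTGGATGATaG
Erbb2: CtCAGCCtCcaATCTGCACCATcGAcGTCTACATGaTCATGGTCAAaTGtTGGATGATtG
Erbb3: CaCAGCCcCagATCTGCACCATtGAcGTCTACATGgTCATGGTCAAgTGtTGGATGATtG
In mm10 these bases lie within chr11:16906835-16908888 for Egfr, chr11:98434901-98435286 for Erbb2 and chr10:128571532-128571692 for Erbb3, introns included. Egfr and Erbb3 each equal Erbb2 at 53 of the 60 bases. Over the whole coding sequences, the longest run that Egfr and Erbb2 share without a mismatch was 20 bases, that of Erbb2 and Erbb3 16 bases and that of Egfr and Erbb3 14 bases. The coding sequences also differ in base composition, with a GC content of 57.6% in Erbb2, 54.7% in Erbb3, 50.8% in Egfr and 47.9% in Erbb4. Rat sequence of neuT was not used here, and whether its reads were counted as mouse Erbb2 was not tested.

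Library depth ran from 30905703 to 50879106 counts among the first WT runs, from 46532851 to 48887808 among their second runs and from 46331204 to 51757203 in ATLD. Mre11a, the gene that carries the ATLD1 allele, lay between 43.3 and 58.6 CPM (counts per 1e+06 counts after TMM scaling) in the first WT runs and between 14.1 and 17.0 in ATLD. Summed levels of 8 mammary epithelial markers, Epcam and keratins among them, ran from 4601 to 11729 CPM in the original libraries, and none of the 8 was at 0 in any group. Libraries differed in how well GC-rich transcripts were counted. The mean log2 level of genes in the upper quartile of GC content minus that of genes in the lower quartile, relative to all libraries, was -0.96 and -0.94 in replicates 1 and 3 of WT day 14 and -0.76 in replicate 2 of WT day 28, against -0.51 to 0.63 in the others. These 3 WT libraries, called GC-poor here, had the lowest values, and WT day 0 replicate 1 came next at -0.51. No day 0 library is among the 3, so leaving them out changes the later WT days only. Without them each call of a receptor given here was kept, and Erbb2 in WT at day 28 against day 0 and Egfr in ATLD against WT at day 0 were called as well.

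Compared per kilobase of gene length, the receptors had the same order of RNA in all 21 libraries: Erbb3 was highest, then Erbb2, then Egfr, with Erbb4 far below. Erbb3, the neuregulin receptor with the weak kinase, stood at 32.5 ± 1.6 CPM per kilobase (SD, n = 3) in WT day 0. Erbb2, its usual partner, stood at 17.2 ± 2.1, Egfr at 12.7 ± 0.0037 and Erbb4 at 0.0722 ± 0.0048 CPM per kilobase in the same group. Per kilobase, neighbours in this order did not overlap within a library. The ratio of Erbb3 to Erbb2 was at least 1.19 and that of Egfr to Erbb2 at most 0.864 over the 21 libraries. The place of Erbb2 above Egfr depends on the division by gene length, which is 5210 bases for Erbb2 and 11326 for Egfr. In CPM without this division, Egfr averaged 143.6 and Erbb2 89.7 in WT day 0, and 72.5 and 85.3 in ATLD day 28. The ratio of Erbb3 to Erbb2 per kilobase was 1.90 ± 0.15 in WT day 0 and 1.66 ± 0.086 in ATLD day 0, and it was 1.31 ± 0.088 in ATLD day 28 (SD, n = 3). WT day 14 and day 28 had 2.04 ± 0.63 and 1.53 ± 0.44, with single libraries from 1.27 to 2.48, so that WT libraries reached as low as those of ATLD day 28. The second runs of these days gave 1.27 and 1.19.

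The summed receptor RNA was 62.5 ± 3.7 CPM per kilobase in WT day 0, 62.3 ± 7.8 in WT day 14 and 62.7 ± 7.2 in WT day 28. The ATLD cultures had 56.0 ± 10.9 at day 0, 51.1 ± 6.5 at day 14 and 44.9 ± 10.9 CPM per kilobase at day 28 (SD, n = 3 each). Erbb3 held 47.9% to 53.9% of this sum as a group mean, Erbb2 27.5% to 36.6% and Egfr 14.2% to 20.3%. Erbb4 held 0.0147% ± 0.0052 in WT day 14 and 1.32% ± 0.38 in ATLD day 28, its lowest and highest group means.

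**Figure D1:**
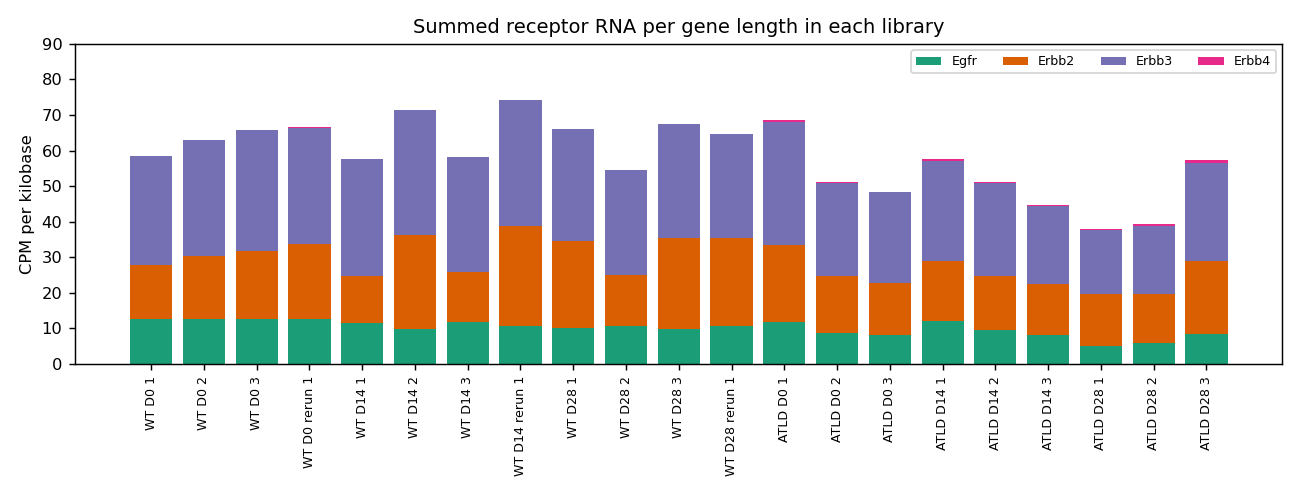
Stacked bars give the CPM per kilobase of gene length of the 4 receptors in each of the 21 libraries, with runs of a WT culture sequenced again called rerun. Erbb3 is the tallest part of each bar, and Erbb4 is visible as a thin line in ATLD libraries, where its mean share at day 28 was 1.32% of the sum and its highest 1.65%.

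Between libraries and days the 4 genes did not move together, and Erbb4 moved most. In WT, 1 of the 4 receptors was called at day 14 against day 0 and 1 at day 28 against day 0, Erbb4 both times. A call is a Benjamini-Hochberg adjusted p under 0.05 in edgeR's quasi-likelihood test, over all genes tested. By the same test 30.3% of all genes were called at day 14 (15.2% higher, 15.1% lower) and 24.7% at day 28 (12.3% and 12.4%), so 1 of 4 is near the background. In ATLD none was called at day 14, where 11.7% of all genes were (5.18% higher, 6.49% lower), with the smallest adjusted p of the 4 at 0.543, an unadjusted p over 0.05 for each and no call by DESeq2. At day 28 against day 0, 3 of 4 were called against 29.8% of all genes (14.1% higher, 15.7% lower). Between days 28 and 14, none of 4 was called in WT, by edgeR or by DESeq2 and with no unadjusted p under 0.05, against 0.905% of all genes (0.53% higher, 0.375% lower). In ATLD 1 of 4 was called between these days, against 17.3% (8.25% and 9.05%).

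**Figure D2:**
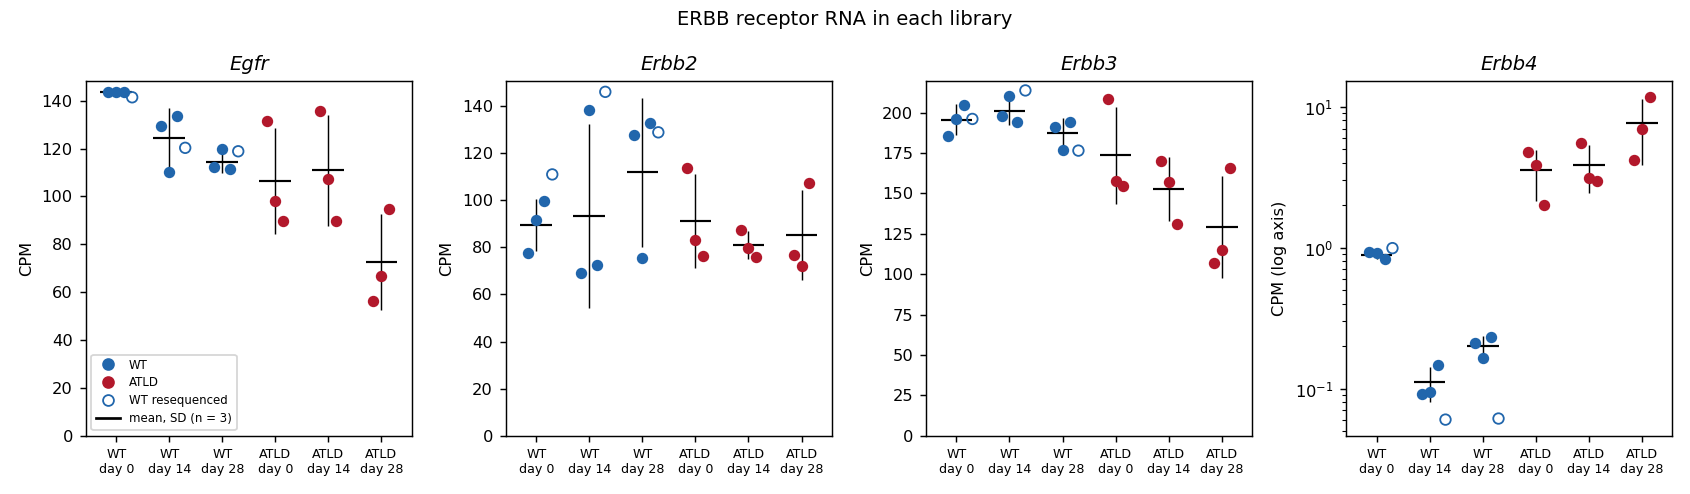
Points give the CPM of each receptor in each library by genotype and day, with the mean and SD of the 3 original libraries as bars and resequenced WT runs as open circles; the Erbb4 axis is logarithmic. The ATLD libraries lie above all WT libraries for Erbb4 (2.0 CPM or more against 0.992 or less). For Egfr the group means run from 143.6 CPM in WT day 0 to 72.5 in ATLD day 28.

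Erbb4, the neuregulin receptor tied to lobule formation and milk production, fell in WT after neuT activation. Its 3 WT day 0 libraries had 0.938, 0.912 and 0.826 CPM, the day 14 libraries 0.0916, 0.0943 and 0.147, and the day 28 libraries 0.209, 0.164 and 0.232. Day 0 was thus above both later days with no overlap. These levels rest on few reads: 31 to 45 counts at day 0, 4 to 7 at day 14 and 6 to 11 at day 28. The log2 change was -2.98 ± 0.56 (SE) at day 14 (edgeR adjusted p = 0.000478), a 7.87-fold fall with a 95% interval of -4.15 to -1.80 on the log2 scale. At day 28 it was -2.11 ± 0.51 against day 0 (edgeR adjusted p = 0.00486), with an interval of -3.19 to -1.03. In the fit without the 3 GC-poor WT libraries the day 14 change was -3.24 (edgeR adjusted p = 0.0339) and the day 28 change -2.03 (edgeR adjusted p = 0.0273). Day 28 against day 14 was not called, at 0.86 ± 0.70.

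The resequenced WT runs gave Erbb4 50 counts at day 0, 3 at day 14 and 3 at day 28, against 45, 5 and 9 in the original runs of the same cultures. Both sets of runs thus put day 0 above the later days.

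Erbb4 stood higher in ATLD at each day. The ATLD day 0 libraries had 4.73, 3.86 and 2.0 CPM, the day 14 libraries 5.57, 3.13 and 2.95, and the day 28 libraries 4.21, 6.94 and 11.7. Each of these 9 values was above each WT value, whose highest was 0.992 CPM in a resequenced run. In the fit of 21 libraries with a batch term, the log2 difference of ATLD from WT was 2.14 ± 0.48 for the day 0 cultures (edgeR adjusted p = 0.00115). By day 14 it had reached 5.48 ± 0.58 (edgeR adjusted p = 1.79e-07), and day 28 gave 5.71 ± 0.56 (edgeR adjusted p = 5.78e-08). Without WT day 0 replicate 1 and its second run the day 0 difference was 3.34 (edgeR adjusted p = 0.0103). The values of the full fit are 4.40-fold, 44.7-fold and 52.4-fold differences. As background, 26.1%, 30.1% and 29.3% of all genes were called higher in ATLD at these days. Without the 3 GC-poor WT libraries the differences were 2.09, 5.79 and 5.66, all called. The WT counts at day 14 and day 28 are so low that the sizes of the later differences depend on the fit: they were 5.09 and 5.20 with the original libraries alone, and 6.01 and 6.93 in the second sequencing batch alone, where each WT group is 1 library that is assumed to vary like the ATLD groups.

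The change over time also differed between genotypes for Erbb4. The ATLD change from day 0 minus the WT change was 3.11 ± 0.66 at day 14 (edgeR adjusted p = 0.00196) and 3.22 ± 0.61 at day 28 (edgeR adjusted p = 0.000599), where 10.8% and 13.5% of all genes were called higher (10.6% and 14% lower, 21.3% and 27.5% in all). Without the 3 GC-poor WT libraries these were 3.40 (edgeR adjusted p = 0.0389) and 3.13 (edgeR adjusted p = 0.00348). The other 3 receptors were not called in either contrast. Within ATLD, Erbb4 was 0.14 ± 0.34 at day 14 against day 0, not called, and rose by 1.11 ± 0.33 at day 28 (edgeR adjusted p = 0.0180), with overlapping groups. Day 28 against day 14 was 0.97 and just missed a call (edgeR adjusted p = 0.0533), and 7 of 17 alternatives called it, DESeq2 and the GC offset among them. The rise from day 0 rests on 2 libraries. Leaving out ATLD day 28 replicate 3, the highest, gave 0.66 (edgeR adjusted p = 0.138), and leaving out ATLD day 0 replicate 3, the lowest, gave 0.82 (edgeR adjusted p = 0.082).

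Summed markers of luminal progenitors, the cells that give rise to milk-producing alveoli, moved with Erbb4. The 12 markers, which include Elf5, Kit, Ltf and Csn3, summed to 13602 to 14046 CPM in WT day 0 and to 664 to 808 in WT day 14 and 764 to 1014 in WT day 28. In ATLD they summed to 24230 to 29427 CPM at day 0, 22924 to 27149 at day 14 and 45143 to 50819 at day 28, and none was at 0. In WT day 14 against day 0, 11 of the 12 fell and 1 rose, and in ATLD against WT at day 14 all 12 were higher. At day 28, 0 rose and 11 fell in WT against day 0, and 10 were higher and 0 lower in ATLD against WT. In the genotype by time contrasts 10 were higher and 1 lower at both days. Within ATLD single markers were split. In ATLD 7 rose and 3 fell at day 28 against day 0, and 4 rose and 3 fell at day 28 against day 14. Against WT, 8 were higher and 1 lower in ATLD at day 0. Schwann cell markers, listed because these cells also express Erbb receptors, summed to 219 to 264 CPM in WT day 0, 59.1 to 69.9 in WT day 14 and 680 to 837 in ATLD day 28. Of 8 tested, 1 rose and 6 fell in WT at day 14, but in ATLD against WT 1 was higher and 4 lower at day 0 (median -0.68), 3 and 1 at day 14 (median -0.12) and 4 and 2 at day 28 (median 0.68). Of these 9 genes Foxd3 was at 0 in all groups. Sox10, given below among the regulators, held most of the summed level in WT day 0 and ATLD day 14 but little of it in WT day 14. The part of either marker list in the Erbb4 result was not tested. In bulk RNA, fewer cells of a type and less RNA per cell cannot be told apart.

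Egfr, the receptor of EGF, amphiregulin and related ligands, was lower in ATLD at day 28. Its WT libraries ran close together, with all of day 0 at 144 CPM (143.6 ± 0.042, SD, n = 3), day 14 at 130, 110 and 133, and day 28 at 112, 120 and 111. ATLD day 0 had 132, 98.0 and 89.5 CPM, day 14 had 136, 107 and 89.7, and day 28 had 56.2, 66.6 and 94.9. The ATLD day 28 libraries were all below the WT day 28 libraries, whereas at day 14 the genotypes overlapped. WT fell short of a call at both days: day 14 against day 0 was -0.21 ± 0.18 and day 28 against day 0 -0.33 ± 0.18, although no later library reached the day 0 level. In a fit of only WT days 0 and 28 the latter was -0.35 and called (edgeR adjusted p = 0.00558).

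In ATLD, Egfr fell by 0.55 ± 0.18 at day 28 against day 0 (edgeR adjusted p = 0.0300) and by 0.61 ± 0.18 against day 14 (edgeR adjusted p = 0.0283) on the log2 scale, with overlapping groups both times. As background, 15.7% and 9.05% of all genes fell in these comparisons. The first fall was lost without ATLD day 0 replicate 1 (-0.37, edgeR adjusted p = 0.165), day 28 replicate 1 (-0.40, 0.149) or day 28 replicate 2 (-0.49, 0.105), and the second without ATLD day 14 replicate 1 or 2 or day 28 replicate 1 or 2 (-0.44 to -0.64, edgeR adjusted p up to 0.158). ATLD minus WT was -0.67 ± 0.19 at day 28 (edgeR adjusted p = 0.00483), a 1.59-fold lower level, and was not called at day 0 (-0.42 ± 0.19, 95% interval -0.82 to -0.02, edgeR adjusted p = 0.0660) or day 14 (-0.15 ± 0.19). The day 28 difference lost its call without WT day 28 replicate 1 and its second run (-0.64, edgeR adjusted p = 0.0586), and with offsets for GC content and length it was -0.19 and not called. Without the 3 GC-poor WT libraries the day 28 difference was -0.67 (edgeR adjusted p = 0.00545), and the day 0 difference was called, at -0.46 (edgeR adjusted p = 0.0442). The day 0 difference was also called with no batch term, with voom, with total count scaling and without ATLD day 0 replicate 1 (-0.44 to -0.64). The change over time was not called as different between genotypes, at 0.27 ± 0.26 for day 14 and -0.22 ± 0.26 for day 28.

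Erbb3, the most abundant receptor, showed no called change in WT. Its WT values were 186, 196 and 205 CPM at day 0, 198, 210 and 194 at day 14, and 191, 177 and 194 at day 28, and the days overlapped with day 0. The 95% intervals of the WT changes were -0.28 to 0.36 at day 14 and -0.38 to 0.26 at day 28. ATLD had 208, 158 and 155 CPM at day 0, 170, 157 and 131 at day 14 and 107, 115 and 166 at day 28. Every ATLD value at day 14 and day 28 was below every WT value of the same day, and at day 0 replicate 1 of ATLD was the highest of both genotypes.

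The log2 change of Erbb3 in ATLD at day 28 against day 0 was -0.42 ± 0.15 (edgeR adjusted p = 0.0431), with overlapping groups. Leaving out ATLD day 0 replicate 1 (-0.27), day 28 replicate 1 (-0.31) or day 28 replicate 2 (-0.35) ended this call (edgeR adjusted p up to 0.220), whereas without day 28 replicate 3 the change was -0.65 (edgeR adjusted p = 0.00248). Without that library the change against day 14 (-0.46, edgeR adjusted p = 0.0364) and the genotype by time contrast at day 28 (-0.58, edgeR adjusted p = 0.0265) were called too. Total count scaling (edgeR adjusted p = 0.0552) and a fit of days 0 and 28 of ATLD alone (edgeR adjusted p = 0.0743) ended it too. With the replicate number as a block it was -0.42 with an edgeR adjusted p of 0.0673. ATLD minus WT was -0.42 ± 0.16 at day 14 (edgeR adjusted p = 0.0262) and -0.52 ± 0.16 at day 28 (edgeR adjusted p = 0.00863), 1.34-fold and 1.43-fold lower. The day 14 call was lost without WT day 14 replicate 1 or ATLD day 14 replicate 3 (-0.36 and -0.32). It was also lost with the block (-0.40, edgeR adjusted p = 0.0635) and with a GC offset (-0.30, edgeR adjusted p = 0.0510). The same held with no filter on low counts (-0.34, edgeR adjusted p = 0.0878) and in the second batch alone, where each WT group is 1 library. Without the 3 GC-poor WT libraries the differences were -0.39 at day 14 (edgeR adjusted p = 0.0474) and -0.48 at day 28 (edgeR adjusted p = 0.0136). At day 0 the difference was -0.18 ± 0.16 and was not called.

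Erbb2, the partner receptor and the gene whose rat form was activated, had the widest spread of the 3 abundant receptors in WT. Its WT values were 77.8, 91.7 and 99.5 CPM at day 0, 68.9, 139 and 72.7 at day 14, and 128, 75.3 and 133 at day 28. The 3 low values of the later days belong to the 3 GC-poor libraries. ATLD had 114, 83.1 and 76.3 CPM at day 0, 87.6, 79.6 and 76.1 at day 14, and 76.7, 72.2 and 107 at day 28. WT and ATLD overlapped at each day on this scale.

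Erbb2 did not pass the test over time in either genotype when all 18 original libraries were used. WT changed by 0.06 ± 0.26 at day 14 and 0.32 ± 0.26 at day 28, with 95% intervals of -0.48 to 0.60 and -0.22 to 0.86. ATLD changed by -0.17 ± 0.26 and -0.09 ± 0.26. Without the 3 GC-poor libraries the WT day 14 change was 0.59 (edgeR adjusted p = 0.0533), and the day 28 change was 0.51 and called (edgeR adjusted p = 0.0341). That fit kept WT day 0 replicate 1, the next lowest in GC trend. Its Erbb2 level was 77.8 CPM in the first run and 111 in the second, so these changes may be too high. Day 28 against day 14 in WT was called only without WT day 14 replicate 2 (0.66, edgeR adjusted p = 0.0485). ATLD minus WT was -0.66 ± 0.27 at day 14 (edgeR adjusted p = 0.0395) and -0.74 ± 0.28 at day 28 (edgeR adjusted p = 0.0266), 1.58-fold and 1.67-fold lower, and -0.35 ± 0.28 at day 0, not called. These calls depend on the batch term: with the original libraries alone they were -0.21 and -0.39 and not called. With the replicate number as a block they were -0.67 (edgeR adjusted p = 0.0686) and -0.74 (edgeR adjusted p = 0.0567), and voom gave -0.61 at day 14 (limma adjusted p = 0.0539). The day 14 call was lost on leaving out WT replicate 1 or 2 or any of the 3 ATLD replicates (-0.52 to -0.72, edgeR adjusted p up to 0.139). The day 28 call was lost without WT replicate 1 or ATLD replicate 1 or 2 (-0.63 to -0.77, edgeR adjusted p up to 0.101). Without the 3 GC-poor libraries they were -0.81 (edgeR adjusted p = 0.000553) and -0.67 (edgeR adjusted p = 0.00207).

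Replicate 1 of WT, counted in both batches, shows how far Erbb2 differed between runs of a culture. What set the runs apart was not tested. For replicate 1 of WT the first and second run gave 77.8 and 111 CPM at day 0, 68.9 and 146 at day 14, and 128 and 129 at day 28. The day 14 shift was 1.08 on the log2 scale, larger than any difference of Erbb2 between days or genotypes above. Egfr and Erbb3 moved by no more than 0.12 between runs of a culture. After correction for each library's GC trend, Erbb2 stood at 95 ± 4.0, 108 ± 7.3 and 108 ± 7.2 CPM in WT days 0, 14 and 28, and at 89.5 ± 13.8, 83.0 ± 9.9 and 78.7 ± 16.2 in ATLD (SD, n = 3). On this scale ATLD minus WT was -0.44 at day 14 (edgeR adjusted p = 0.00665) and -0.48 at day 28 (edgeR adjusted p = 0.00351).

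**Figure D3:**
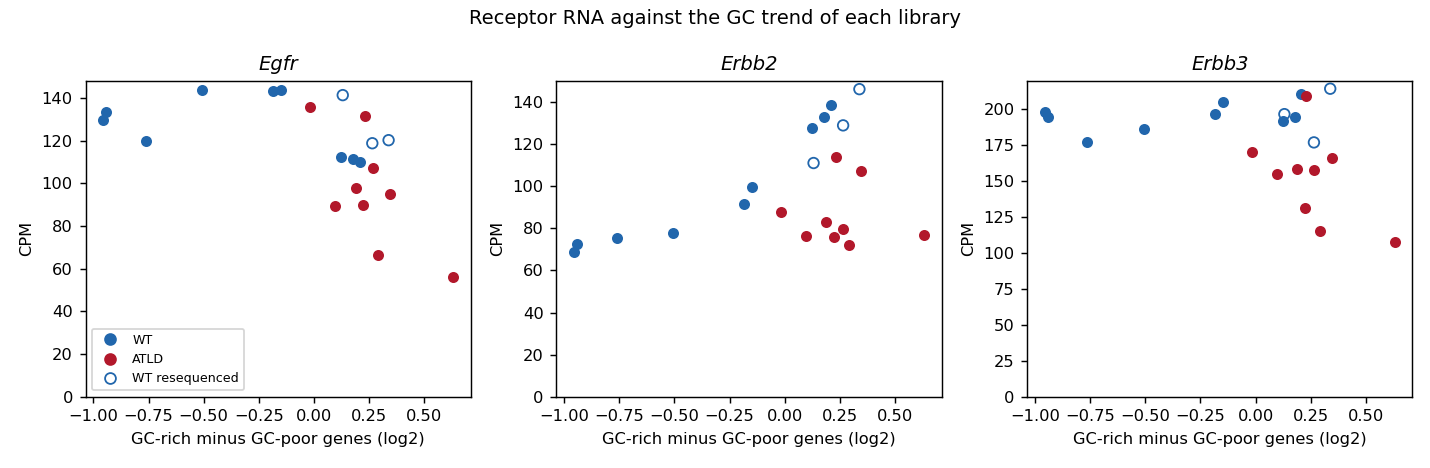
Each point is a library; the horizontal axis gives how GC-rich genes were counted relative to GC-poor genes (log2) and the vertical axis the CPM of Egfr, Erbb2 and Erbb3. The WT libraries of Erbb2 climb from 68.9 CPM in the most GC-poor library to 146 in a resequenced run, and the ATLD libraries sit between 72.2 and 114 CPM.

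Set side by side against WT, 1 of the 4 receptors was called at day 0, 3 at day 14 and all 4 at day 28, where 55.6%, 65.1% and 64.2% of all genes were called. At day 28, 3 were lower and 1 higher, against 34.9% and 29.3% of all genes. The shares of all genes called lower were 29.5% at day 0 and 35% at day 14. With so many genes called, the count of receptors says little about them as a group. The median difference over the 4 was -0.26, -0.29 and -0.59 at days 0, 14 and 28, and that over all genes was -0.04, -0.07 and -0.05. In the second batch alone, with 1 WT library a day, only Erbb4 was called at day 28 in place of 4 receptors, with -0.56 for Erbb2 (edgeR adjusted p = 0.0533), -0.68 for Egfr (0.0535) and -0.41 for Erbb3 (0.156).

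**Figure D4:**
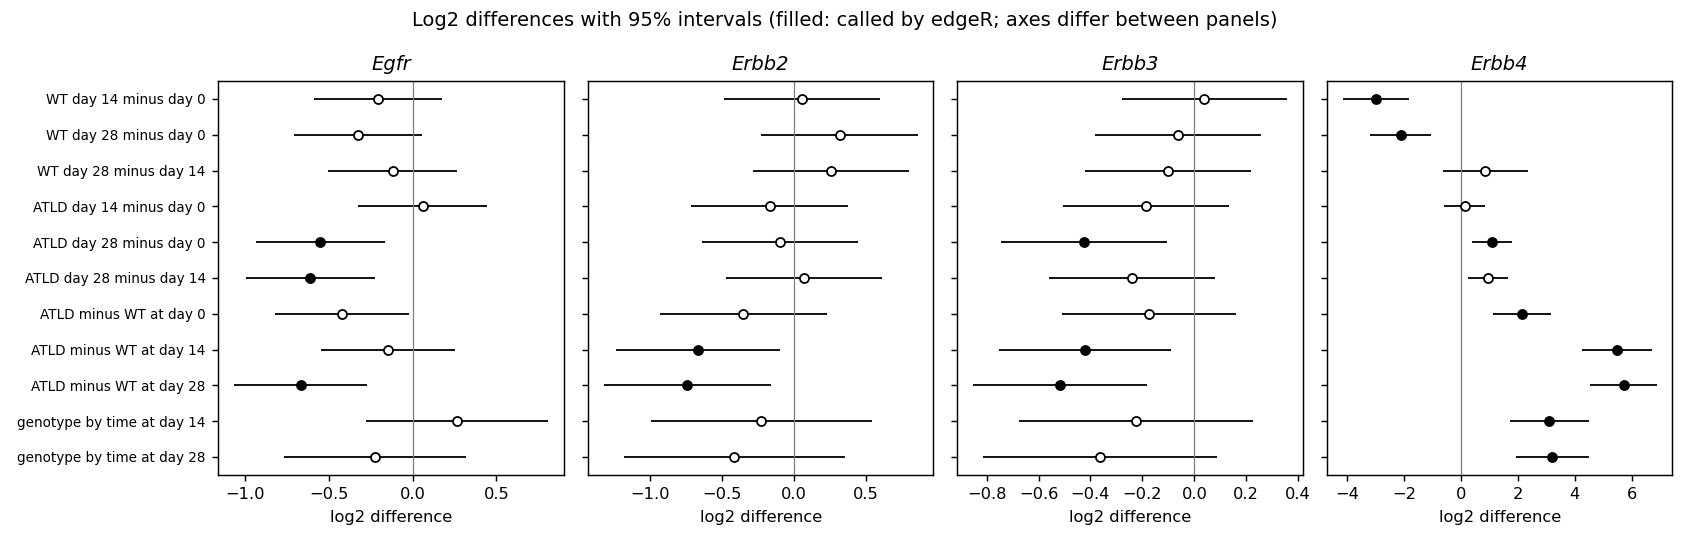
Points give the log2 difference of each receptor in the 11 comparisons, lines the 95% interval and filled points those called by edgeR; the axes differ between panels. Erbb4 spans -2.98 to 5.71, whereas the other receptors stay within -0.74 and 0.32.

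The 18 original libraries were searched for the genes whose log2 level followed each receptor most closely, among 11333 genes of at least 1 log2 CPM on average (11334 for Erbb4, which is itself below that level). These correlations are descriptions over 6 groups of 3 libraries, and genes that differ between genotypes or with GC content share that pattern. For Erbb4 the nearest included Marveld3 (Pearson r = 0.978), a tight junction protein, Man1c1, Rftn2 and Wnt5b (r = 0.973). Wnt5b, a secreted Wnt ligand, averaged 69.6, 17.2 and 26.9 CPM in WT days 0, 14 and 28 and 200.2, 263 and 283 in ATLD, the same order of genotypes and the same WT dip as Erbb4.

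For Egfr the nearest were Atrn (r = 0.956), Sel1l3, Sptbn1, C2cd2 and Macf1 (r = 0.939). Sptbn1, a spectrin of the membrane skeleton, averaged 469 CPM in WT day 0 and 238 in ATLD day 28, and Macf1, a crosslinker of actin and microtubules, 573 and 169. For Erbb3 they were Tmem131 (r = 0.970), Ganab, Crim1, Igf2r and Uggt1 (r = 0.941). Ganab and Uggt1 act on glycoproteins in the endoplasmic reticulum, and Igf2r clears the growth factor IGF2. Igf2r averaged 235 CPM in WT day 0 and 68.4 in ATLD day 28, a wider range than that of Erbb3. For Erbb2 the nearest included Zfp362 (r = 0.933), Zfp777, Cdc42bpg and Ptk7 (r = 0.927), all with a transcript GC content of 57.5% to 60.3%, near the 57.3% of Erbb2. After correction for the GC trend these 4 ranked 142, 701, 300 and 15 for likeness to Erbb2. The 5 named for Egfr ranked 37, 65, 12, 35 and 50 on that scale, those for Erbb3 1, 4, 5, 10 and 3, and Marveld3, Man1c1, Rftn2 and Wnt5b 193, 11, 6 and 15 for Erbb4.

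The ligands changed in both directions. Of 10 ligands tested, 4 rose and 4 fell in WT at day 14 against day 0, with a median change of -0.33 (all genes 0.01), and at day 28 it was 4 and 3. Btc (betacellulin), which binds Egfr and Erbb4, fell from 14.4 ± 1.8 CPM in WT day 0 to 8.16 ± 0.88 at day 14 and 6.05 ± 1.1 at day 28. It stood at 38.4 ± 2.9, 38.1 ± 1.9 and 25.7 ± 2.8 CPM in ATLD (SD, n = 3), so that ATLD was higher by 2.48 ± 0.16 at day 14 (log2, edgeR adjusted p = 2.53e-10). Epgn (epigen), a ligand of Egfr, was also higher in ATLD, by 1.65 ± 0.22, 1.93 ± 0.23 and 2.60 ± 0.23 at the 3 days.

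The 3 neuregulins tested, ligands of Erbb3, Erbb4 or both, differed among themselves, and Nrg3 was at 0 in all 6 groups. Nrg1 averaged 25, 22 and 19.6 CPM in WT and 14.7, 5.07 and 7.96 in ATLD, with a change of -1.54 ± 0.14 in ATLD at day 14 against day 0 (log2, edgeR adjusted p = 1.62e-06). The WT change of -0.19 ± 0.14 was not called. Nrg4 was lower in ATLD at each day, with log2 differences of -3.22 ± 0.36, -2.34 ± 0.38 and -2.25 ± 0.37, at 0.333 to 0.403 CPM against 1.95 to 3.47 in WT. Nrg2 fell in WT from 20.1 CPM at day 0 to 2.58 at day 14, and ATLD was lower than WT at day 0 (-2.00 ± 0.24) but higher at day 14 (0.80 ± 0.24) and day 28 (0.76 ± 0.25). Between the genotypes 4 ligands were higher and 5 lower at day 0, 5 and 5 at day 14, and 4 and 5 at day 28, with medians of -0.20, -0.15 and -0.21. Of 4 genes that act in the shedding of ligands from the cell surface, 2 rose in WT at day 14. Adam17, the main protease of Egfr ligands, rose from 117 ± 4.6 to 166 ± 14.1 CPM there and stood at 103 ± 11.9 in ATLD day 14, a log2 difference of -0.60 ± 0.12 (edgeR adjusted p = 0.000209). Its WT rise and that of Adam10, the other of the 2, were not called without the 3 GC-poor libraries.

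Genes that restrain or degrade the receptors were split as well. Of 15 tested, 4 rose and 2 fell in WT at day 14, and in ATLD against WT 3 were higher and 9 lower at day 14, with a median of -0.58 (all genes -0.07). Lrig1, a membrane protein that promotes loss of ERBB receptors, fell from 128 ± 10.6 CPM in WT day 0 to 33.4 ± 5.5 at day 14 and stood at 150 ± 12.9 in ATLD day 14. Its relative Lrig3 did the reverse, with 39.8 ± 2.4 CPM in WT day 0, 83.9 ± 3.2 in WT day 14 and 24.9 ± 4.0 in ATLD day 14. Cblb, a ubiquitin ligase of activated receptors, rose from 53.6 ± 2.3 to 112 ± 11 CPM in WT at day 14 and was lower in ATLD, at -0.78 ± 0.12, -1.87 ± 0.12 and -1.93 ± 0.12 on the 3 days. Cbl, its relative, was lower in ATLD at each day too, with differences from -0.93 ± 0.22 to -1.78 ± 0.23.

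Among 28 partners and adaptors of the receptors, 1 rose and 7 fell in WT at day 14 against day 0. In ATLD against WT 7 were higher and 9 lower at day 0, 12 and 9 at day 14, and 12 and 8 at day 28. Gab2, a docking protein that carries receptor signals to PI3 kinase, fell from 21 ± 0.85 to 5.44 ± 0.46 CPM in WT at day 14 and stood at 33.4 ± 2.3 in ATLD day 14, higher by 2.71 ± 0.13 (edgeR adjusted p = 1.83e-12). Pik3r3, a regulatory subunit of PI3 kinase, was higher in ATLD by 0.99 ± 0.11, 1.30 ± 0.12 and 1.69 ± 0.12 at the 3 days. Muc1, a mucin that binds ERBB receptors, rose in ATLD from 7.31 ± 0.69 to 32.6 ± 9.3 CPM between day 0 and day 28. Muc4, a mucin known as a partner of Erbb2, fell in both genotypes at day 14, with changes of -2.68 ± 0.41 in WT and -2.60 ± 0.40 in ATLD.

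Output genes of the ERK pathway, which lies downstream of the receptors, changed in both directions. Of 15 tested, 2 rose and 7 fell in WT at day 14, where 15.2% of all genes rose and 15.1% fell. In ATLD 3 rose and 2 fell at day 14 (5.18% and 6.49% of all genes), and 8 rose and 1 fell at day 28 (14.1% and 15.7%). The medians were -0.22, 0.02 and 0.50, against 0.01, -0.03 and -0.02 for all genes. Etv1, a transcription factor induced by ERK, fell from 38.6 ± 2.8 CPM in WT day 0 to 1.12 ± 0.32 at day 14 and 1.45 ± 0.12 at day 28. In ATLD it stood at 6.62 ± 0.44, 7.32 ± 0.56 and 19.9 ± 3.8 CPM, so that ATLD was lower at day 0 (-2.38 ± 0.18) and higher at day 14 (2.92 ± 0.20) and day 28 (3.89 ± 0.20). Spry4, a feedback inhibitor of the pathway, followed the same course: 18.2 ± 1.3, 0.651 ± 0.11 and 1.02 ± 0.16 CPM in WT and 6.48 ± 0.95, 4.99 ± 0.63 and 9.94 ± 1.4 in ATLD. Ier3 and Phlda1, which ERK also induces, fell in WT at day 14, with changes of -1.24 ± 0.20 and -1.38 ± 0.15. Between genotypes, 11 of the 15 genes were lower in ATLD and none higher at day 0, where 29.5% of all genes were lower and 26.1% higher. At day 14, 9 were lower and 5 higher (median -0.43), against 35% and 30.1% of all genes. At day 28, 7 were lower and 6 higher (median -0.68), against 34.9% and 29.3%. Etv1 and Spry4 were thus not typical of the list at these days. Whether the list differs from other genes was not tested.

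Other receptor tyrosine kinases gave a comparison group. Of 26 tested, 2 were higher and 16 lower in ATLD at day 28, with a median of -1.08 against -0.59 for the 4 ERBB receptors and -0.05 for all genes. At day 0 the counts were 2 and 14, and at day 14 they were 5 and 13. Kit, the stem cell factor receptor and a luminal progenitor marker, fell from 278 ± 8.1 to 31.5 ± 4.2 CPM in WT at day 14 and stood at 336 ± 72.7 in ATLD day 14. Mst1r, the receptor of macrophage-stimulating protein, ran the other way, with 3.03 ± 0.33 and 6.98 ± 2.3 CPM in WT days 0 and 14 and 1.03 ± 0.11 in ATLD day 14. Fgfr3 and Fgfr4, receptors of fibroblast growth factors, were lower in ATLD at each day, Fgfr3 with differences from -2.32 ± 0.27 to -3.33 ± 0.27.

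The transcription factors listed as regulators of receptor genes included some of the widest differences. Of 19 tested, 1 rose and 7 fell in WT at day 14, and at day 14 6 were higher and 8 lower in ATLD than in WT. Elf5, which drives alveolar differentiation, fell from 270 ± 7.1 to 13.5 ± 2.8 CPM in WT at day 14 and stood at 514 ± 22.8 in ATLD day 14. Sox10, a factor of progenitor and neural crest cells, fell from 149 ± 24.0 to 4.37 ± 2.2 CPM in WT and stood at 415 ± 59.8 in ATLD day 14. Both changed in WT in the direction of Erbb4. Foxa1, a factor of hormone-sensing luminal cells, was at 103 to 134 CPM in the WT groups and at 2.07 to 5.73 in the ATLD groups, with a difference of -5.00 ± 0.21 already at day 0. Ehf was higher in ATLD by 0.73 ± 0.15 at day 0 and 1.25 ± 0.15 at day 28.

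The genes next to Erbb2 on chromosome 11 did not move as a block. Of 6 tested neighbours, 1 rose and none fell in WT at day 14 and at day 28, and none was called in WT between days 14 and 28 or in ATLD at day 14, by edgeR. In ATLD against WT 2 were higher and 2 lower at both later days. Mien1, which shares exonic bases with Erbb2, was higher in ATLD by 1.15 ± 0.18, 1.81 ± 0.19 and 1.92 ± 0.18 at the 3 days. Grb7, an adaptor of Erbb2, was higher by 1.0 ± 0.26 at day 28, and Cdk12, a kinase of transcription, was lower, at -0.61 ± 0.14, -0.87 ± 0.14 and -0.79 ± 0.14. Ppp1r1b, a phosphatase inhibitor, rose in WT from 5.79 ± 0.26 to 16.9 ± 2.7 CPM at day 14.

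**Figure D5:**
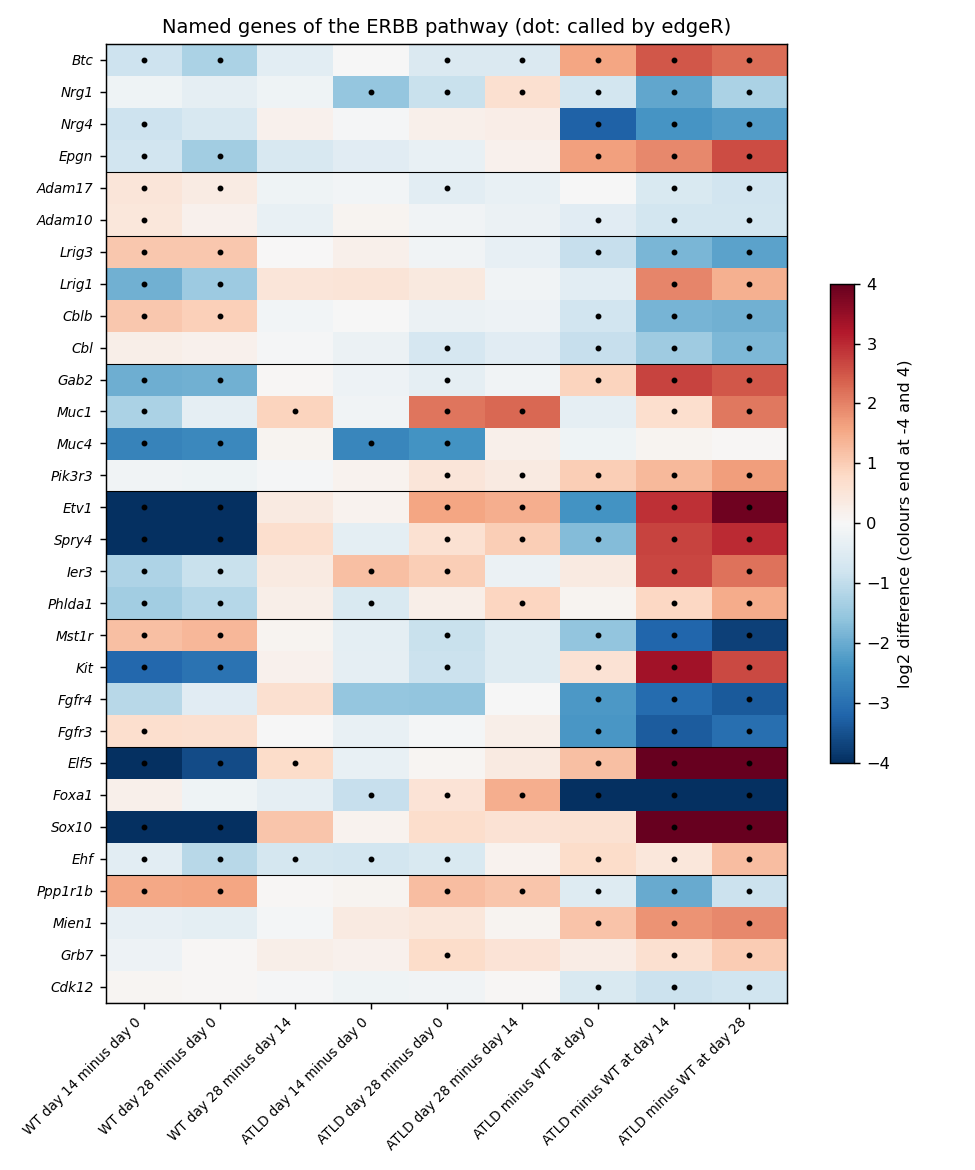
Rows are the named genes of the pathway lists, from ligands at the top through shedding proteases, inhibitors, adaptors, ERK output genes, other receptor tyrosine kinases and regulators to neighbours of Erbb2; columns are 9 comparisons, colours the log2 difference and dots the calls by edgeR. Etv1, Spry4, Elf5 and Sox10 are lower in WT at day 14 and day 28 and higher in ATLD than in WT at those days, while Foxa1 is lower in ATLD at all 3 days.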

How the data were processed

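RNA of 21 libraries was prepared with a stranded polyA TruSeq kit, per the labels' protocols. The authors deposited raw counts per gene; featureCounts, DESeq2 and the mm10 genome are named in the submitters' processing notes, which give no aligner, strand setting or version. The other deposited column gives gene length in bases. Gene IDs matched GENCODE vM21. Genes with low counts were removed (filterByExpr, minimum count 10, minimum total 15), libraries scaled by TMM, and edgeR 4.0.16 (R 4.3.3) quasi-likelihood tests fitted with a prior count of 0.125. Comparisons of days and genotype by time used the 18 original libraries (18684 genes). ATLD was compared with WT in all 21 with a batch term (18844 genes). This fit counted each resequenced run as a further WT library, although it is no independent culture, so its p-values may be too small. All p-values are two-sided and adjusted over all genes tested. The GC correction fitted each library's trend on transcript GC content by a spline of 5 degrees of freedom.

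Alternatives were median-of-ratios scaling, no filter, DESeq2 1.42.0, GC and length offsets, a replicate block, resequenced runs in place of originals, no batch term, the second batch alone, limma 3.58.1 voom with the culture as random block, a fit of only the compared groups, each replicate left out in turn and, chosen after seeing the data, total count scaling and leaving out the 3 GC-poor libraries. The pipeline was tested on simulated data. The receptors, gene lists and alternatives were chosen with earlier results of these data known. Genes named are the receptors, the 5 nearest to each by Pearson correlation (prior count 2), and up to 4 per pathway list with the largest calls and groups that do not overlap, taken over comparisons. Some of the genes and sequences these rules give are not reported here. Marker lists of mammary epithelial, luminal progenitor and Schwann cells are given beside the receptors, and those of hormone-sensing, basal, fibroblast, adipocyte, endothelial, myeloid and squamous cells in the closing section.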

Additional observations from a re-analysis of the deposited data

Results flagged for a closer look

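The change of Erbb4 from day 0 differed between the genotypes by a test of the difference itself. ATLD minus WT change was 3.11 ± 0.66 (log2, SE) at day 14 (edgeR adjusted p = 0.00196) and 3.22 ± 0.61 at day 28 (edgeR adjusted p = 0.000599). It was called under all 22 alternatives at each day. WT rests on 4 to 45 counts of Erbb4 in a library and ATLD on 91 to 497.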

How the results depend on the processing

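Erbb4 was called under all alternatives in WT at day 14 and day 28 against day 0, in both genotype by time contrasts and in ATLD against WT at each day. Of the values called in the report, 243 alternative values kept the call, 39 lost it and 0 changed sign. Of the values not called, 464 stayed so, 17 gained a call and 24 changed sign. The number of receptors called in WT at day 28 against day 0 was 2 in place of 1 in a fit of only these groups and without the 3 GC-poor libraries (Egfr gained the first of these calls and Erbb2 the second). In ATLD at day 28 against day 14 it was 2 in place of 1 with no filter, DESeq2, a GC offset, GC and length offsets, or all libraries with a batch term. In ATLD against WT it was 2 in place of 1 at day 0 with no batch term, voom, total count scaling or no GC-poor library, and 1 in place of 4 at day 28 in the second batch alone. With 1 replicate left out it ranged from 0 to 1 in WT at day 28 against day 14 (1 without WT day 14 replicate 2), from 1 to 3 in ATLD at day 28 against day 0, from 0 to 2 against day 14 and from 1 to 2 for genotype by time at day 28. In ATLD against WT it then ranged from 1 to 2 at day 0, 1 to 3 at day 14 and 2 to 4 at day 28. The fit of only WT days 14 and 28 filtered out Erbb4.

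Signs changed only for values that were not called in the report. Erbb3 in WT was -0.0025 in a fit of only the compared groups and -0.0030 with total counts at day 14, and 0.0016 with GC and length offsets at day 28, which also gave 0.041 for ATLD against WT at day 0. Erbb2 in WT at day 28 against day 14 was -0.0076 with GC and length offsets, -0.084 with resequenced runs and -0.082 without the GC-poor libraries, where Egfr was 0.030. Erbb2 in ATLD at day 28 against day 14 was -0.074 with a GC offset and -0.075 with length added, and 0.020 for ATLD against WT at day 0 with no batch term. Egfr in ATLD against WT at day 14 was 0.031 with a GC offset and 0.23 with length added. With 1 replicate left out, Erbb2 ranged from -0.34 to 0.24 in WT at day 14, from -0.28 to 0.023 and -0.29 to 0.097 in ATLD at day 14 and day 28 against day 0, from -0.13 to 0.18 at day 28 against day 14 and from -0.40 to 0.16 for genotype by time at day 14. In ATLD at day 14 Egfr then ranged from -0.11 to 0.24 and Erbb4 from -0.22 to 0.41. The causes were not tested.

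Whether replicate numbers pair the samples could not be told. Of 45 same-numbered pairs of libraries, 12 deviated together with a correlation over 0.1 (range -0.709 to 0.325). Pairs with different numbers were not set beside them, and many of the 45 join WT with ATLD. With the replicate block 1 receptor was called in ATLD against WT at day 14 in place of 3. Total count scaling moved the median of all genes in ATLD against WT to -0.26, -0.25 and -0.27 at the 3 days, and the GC offset to 0.14, 0.12 and 0.17. Of 192 calls of named list genes, 163 held under all alternatives and 0 changed sign. Those lost without the 3 GC-poor WT libraries were Nrg4, Adam10 and Adam17 in WT at day 14, Adam17 at day 28, Muc1 and Ehf in WT at day 28 against day 14, and Adam17, Phlda1 (day 14) and Cbl (day 28) for genotype by time. All genes called in WT at day 28 against day 14 were 169, with 0 to 358 in other fits and 62 to 3817 with 1 replicate left out (3817 without WT day 14 replicate 2). ATLD at day 14 had 2180 (3421 with a GC offset, 3723 with length), ATLD at day 28 against day 14 had 3232 (5264 with GC and length offsets), and ATLD against WT at day 0 had 10483 (6927 without WT day 0 replicate 1). The 3 to 11 counts of Erbb4 in WT runs after day 0, second runs included, limit the precision of its later differences.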

Other observations

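Marker lists of other cell types in the organoids moved in several directions beside the receptors, and their part in the receptor results was not tested. Markers of hormone-sensing luminal cells (11 genes, none at 0) summed to 542 to 832 CPM in the original WT libraries and 277 to 359 in ATLD. Basal and myoepithelial markers (12 genes, none at 0) summed to 2854 to 3483 CPM in WT day 0, 5076 to 10574 in WT day 14 and 2669 to 2942 in ATLD day 28. Single markers were split in WT at day 14 against day 0, with 5 higher and 6 lower and a median change of -0.42. The WT day 14 sum had a median of 5233 CPM, and the second run of replicate 1 gave 10666. Squamous markers (15 genes) summed to 295 to 329 CPM in WT day 0, 1170 to 1486 in WT day 14 and 92.0 to 104.6 in ATLD day 28, with Sprr2d at 0 in 5 of the 6 groups. Fibroblast markers (9 genes) summed to 128 to 191 CPM in WT day 0, 27.3 to 28.1 in WT day 14 and 43.8 to 47.6 in WT day 28. In ATLD they summed to 56.6 to 182 CPM at day 0, 147 to 257 at day 14 and 100 to 175 at day 28. Of 7 tested, 0 rose and 4 fell in WT at day 14 against day 0. In ATLD against WT at day 14, 2 were higher and 2 lower. Adipocyte, endothelial and myeloid markers summed to at most 5.82, 3.82 and 21 CPM.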
